A study of Mus musculus with 3 samples.

Results

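Complement transcripts were followed in single cells of the mouse retina, for 8 listed genes out of the 18545 in the expression matrix. The genes were given as a list, with no measured threshold, by a choice made with earlier results of these data known. They were C1qa, C1qb, C1qc, C4b and C3 among the components, Serping1 and Cfi among the fluid-phase regulators, and Cd59a on the membrane, and each was found in the matrix. Their levels were read in 21 cell clusters and 3 libraries, with Müller glia (MG, Cluster 0) set against the other clusters. Cluster 0 held 4770 of the 15242 cells, and all 10 of the MG markers checked were raised in it. The question was where the complement genes were expressed in the degenerating retina and whether their levels differed with drug treatment.

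The libraries came from 8-week-old mice on the C57BL/6J background. The WT library held retinas of wildtype mice of both sexes on base chow. The rd10-vehicle library held retinas of female Rd10 mice, which carry a mutation in the rod phosphodiesterase gene Pde6b and lose their rods, on the same chow. The rd10-TMB library held retinas of female Rd10 mice that ate chow with tamsulosin, metoprolol and bromocriptine, drugs that act on alpha-1 adrenergic, beta-1 adrenergic and dopamine receptors. The Rd10 mice were reared in darkness, which slows the rod loss, and no such rearing was stated for WT. Each library was a single pool, of 4 mice by the labels, and the study's methods give fewer for the Rd10 pools. There was thus 1 library per group and no replicate, so no test of a condition was possible. Rearing cannot be told apart from genotype in the WT comparisons. Sex was mixed in WT, and was looked at only by limiting WT cells to those with an Xist UMI and no Y-linked UMI.

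Complement is a cascade of blood and tissue proteins that tags surfaces for removal. C1q binds a target and starts the classical pathway, C4 and C3 are then cut and deposited, and the end product is a pore in the membrane. C1 inhibitor (Serping1) blocks the starting proteases, factor I (Cfi) cuts deposited C3 and C4 fragments, and CD59 (Cd59a) blocks the pore. In the retina, C1q is a known product of microglia, and C3 and C4 transcripts are known to rise in glia after injury.

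The level of a gene was its number of unique molecules (UMIs) summed over the cells of a cluster in a library, per 1000000 UMIs of those cells (CPM). Ranges in brackets are 95% intervals from the counts alone, so they cover counting error and not the spread between mice. A ratio between libraries was computed with 1 UMI added to each count, and a gene counted as measured with at least 20 UMIs over the pair. It was called higher or lower at 1.5-fold or more with an interval that excluded no change. The libraries held 4478, 5952 and 4812 cells, and 18882951, 37002532 and 29192530 UMIs, for WT, rd10-vehicle and rd10-TMB. Between 7 and 10 cell barcodes were shared by each pair of libraries, of 4478 or more cells.

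The 8 genes were found in different cells. In the rd10 libraries nearly all UMIs of C1qa, C1qb and C1qc lay in the microglia-like Cluster 13. Most UMIs of Cfi lay in the rod bipolar (RBC)-like Cluster 2, whereas C4b, C3 and Serping1 were found in MG and the astrocyte-like Cluster 12 and, for Serping1, in vessel clusters. Cd59a was highest in the cone-like Cluster 4. The map of levels by cluster and library shows these blocks.

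**Figure D1:**
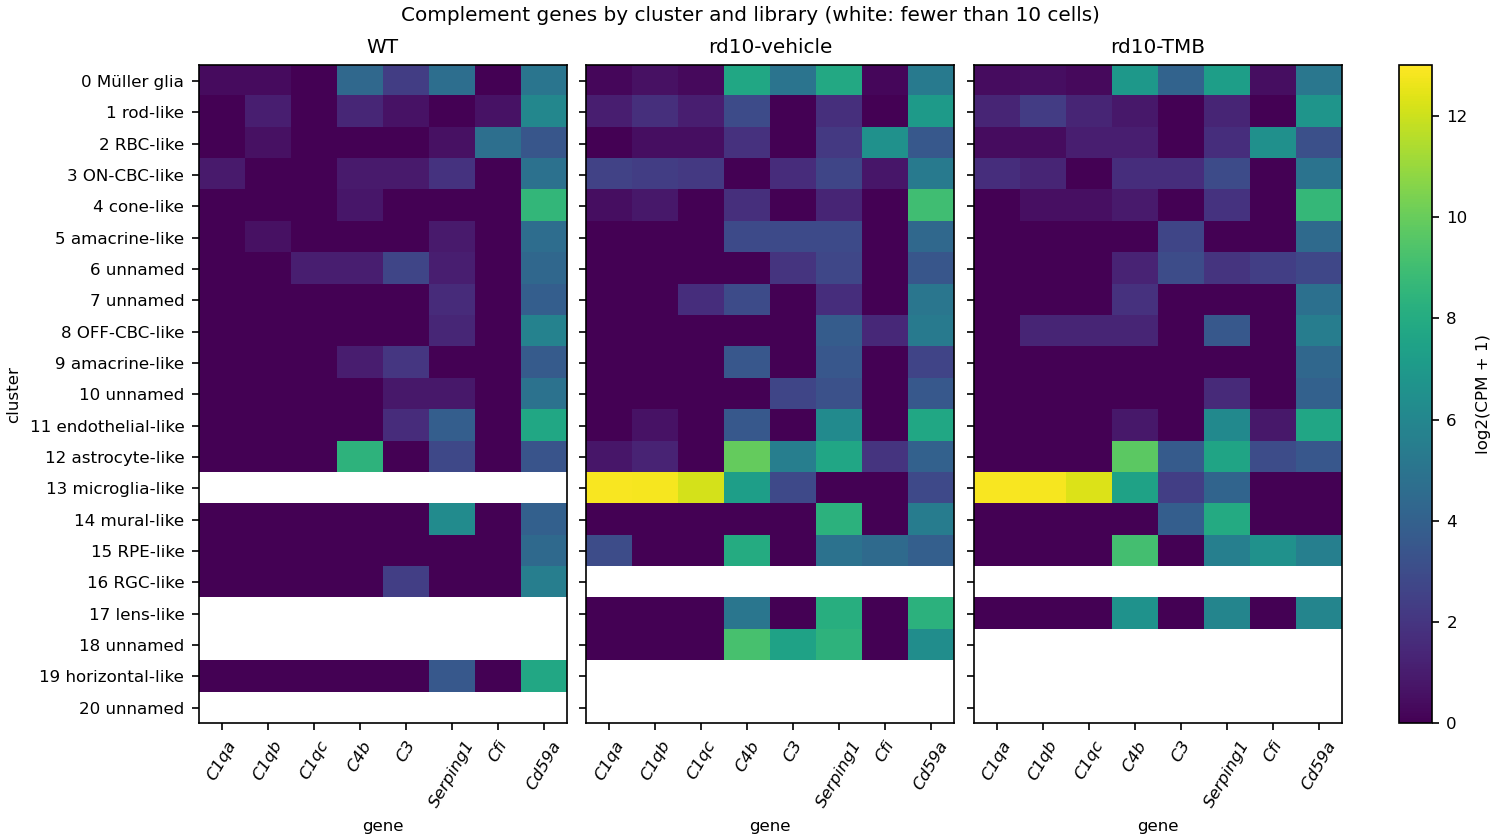
Level of the 8 complement genes as log2(CPM + 1), by cluster (rows) and gene (columns), with a panel per library; white rows had fewer than 10 cells. C1qa, C1qb and C1qc stand at 4620 CPM or more in Cluster 13 of the rd10 libraries, and Cfi stands at 91.5 CPM or more in Cluster 2 of the same libraries and at 94.7 CPM, from 4 UMIs, in Cluster 15 of rd10-TMB.

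In MG, the complement genes that were measured fell into 2 kinds. C4b, Serping1 and C3 were several-fold higher in both rd10 libraries than in WT, with rd10-TMB below rd10-vehicle, and Cd59a lay within 1.5-fold in each pair. Of the 8 genes, 4 were measured in Cluster 0. Since the list was chosen with results of these data known, its counts describe the genes and are no independent evidence of a direction, and the shares of all genes stand beside them as background only. From WT to rd10-vehicle, 3 of these 4 were called higher and 0 lower, where 6.84% of all 13871 measured genes were higher and 7.52% lower. From WT to rd10-TMB, C4b, Serping1 and C3 were again called higher and 0 lower, against 5.49% and 7.07% of 13473 genes. From rd10-vehicle to rd10-TMB, 2 of 4 were called lower and 0 higher, against 2.12% and 0.947% of 14464 genes. The median log2 ratio of the 4 genes was 2.97, 2.22 and -0.67 in these comparisons, and that of all measured genes was -0.07, -0.09 and -0.02. The comparisons share libraries and are given side by side.

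C4b, the component that the starting proteases cut first, stood at 20.2 CPM in WT (15.6 to 25.6), 211 CPM in rd10-vehicle (205 to 217) and 123 CPM in rd10-TMB (117 to 128), from 67, 4683 and 2057 UMIs. The intervals did not overlap, and rd10-TMB lay between the others. The level was 10.3-fold higher in rd10-vehicle than in WT (log2 3.36, 3.04 to 3.76) and 5.99-fold higher in rd10-TMB than in WT (log2 2.58, 2.25 to 2.98). Set against rd10-vehicle, rd10-TMB was 1.72-fold lower (log2 -0.78, -0.86 to -0.71). MG with a C4b UMI numbered 39 of 530 for WT, 1776 of 2492 for rd10-vehicle and 907 of 1748 for rd10-TMB. These shares rise with depth, so each cell was also thinned to 1000 UMIs, after which 1.14%, 17.9% and 10.2% of MG held a C4b UMI. In the rod-like Cluster 1, which should lack C4b, the thinned shares were 0%, 0.820% and 0.150%, where 0 of 954 cells allows up to 0.314%.

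C4b has a near-identical neighbour, C4a, on the same chromosome. On GRCm38, C4b lies on the reverse strand at chr17:34728380-34743882. In the last 500 bases of the C4b transcript, which a 3′ assay reads, 83 of 411 windows of 90 bases occurred unchanged in a C4a transcript, so molecules from there could not be given to either gene by sequence. C4a itself had 0, 10 and 6 UMIs in MG of WT, rd10-vehicle and rd10-TMB.

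Serping1, the inhibitor of the starting proteases, followed C4b closely between libraries. It stood at 25.3 CPM in WT (20.2 to 31.3), 225 CPM in rd10-vehicle (219 to 231) and 153 CPM in rd10-TMB (147 to 159), from 84, 4997 and 2562 UMIs. Again the intervals did not overlap. The ratio to WT was 8.79-fold in rd10-vehicle (log2 3.14, 2.84 to 3.48) and 5.97-fold in rd10-TMB (log2 2.58, 2.28 to 2.92). Against rd10-vehicle, the rd10-TMB level was 1.47-fold lower (log2 -0.56, -0.63 to -0.49), just under the 1.5-fold set for a call. After thinning, 1.71%, 18.1% and 12.04% of MG held a Serping1 UMI, and none of the rod-like cells did in any library. In rd10-vehicle, Serping1 was seen in 19.9% of thinned cells with a C4b UMI (16.2 to 23.9) and in 17.7% of those without (16.02 to 19.4). For rd10-TMB these shares were 12.5% and 11.99%, and in WT they were 3 of 6 cells (11.8% to 88.2%) and 6 of 521 cells (0.424% to 2.49%), which did not overlap.

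C3, the component on which all pathways converge, was lower and unevenly spread. Its MG level was 4.22 CPM in WT (2.31 to 7.08, 14 UMIs), 31.4 CPM in rd10-vehicle (29.1 to 33.8, 697 UMIs) and 16.4 CPM in rd10-TMB (14.5 to 18.4, 275 UMIs). The 3 levels were apart, in the same order as for C4b. C3 was 6.96-fold higher in rd10-vehicle than in WT (log2 2.80, 2.14 to 3.78) and 3.64-fold higher in rd10-TMB than in WT (log2 1.86, 1.19 to 2.85). Its rd10-TMB level was 1.91-fold below that of rd10-vehicle (log2 -0.93, -1.14 to -0.73). Of the MG, 196 of 2492 in rd10-vehicle held a C3 UMI, and the 24 cells with the most held 46.3% of the 697 UMIs. The matching figure was 6.77% for C4b and 9.85% for Serping1, so a small set of MG carried much of the C3. In WT, 7 cells held the 14 UMIs, so the WT level rests on few cells.

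These C3 ratios moved under other choices. Without MG holding a UMI of the lipocalin gene Lcn2, C3 was 2.19-fold higher in rd10-vehicle than in WT (log2 1.13, 0.06 to 3.04). Neither rd10-TMB over WT (log2 0.86, -0.25 to 2.79) nor rd10-TMB over rd10-vehicle (log2 -0.27, -0.88 to 0.32) was called then. In MG with an Lcn2 UMI, C3 in rd10-TMB over rd10-vehicle was under 1.5-fold, with an interval below 0 (log2 -0.57, -0.80 to -0.36). With WT cells limited to those with Xist, the log2 ratio to WT was 1.97 in the vehicle library and 1.04 in the drug library. With cells thinned to 1000 UMIs they were 1.52 and 0.68, and the latter was not called.

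Cd59a, the membrane inhibitor of the pore, stood in MG at 31.6 CPM in WT (25.9 to 38.3), 39.2 CPM in rd10-vehicle (36.7 to 41.9) and 34.5 CPM in rd10-TMB (31.7 to 37.4). The intervals overlapped from library to library. The ratios were below 1.5-fold, at log2 0.30 (0.02 to 0.62) for rd10-vehicle over WT, 0.11 (-0.18 to 0.44) for rd10-TMB over WT and -0.19 (-0.34 to -0.03) for rd10-TMB over rd10-vehicle. Cd59a was thus not called in MG in any pair, and with WT cells limited to those with Xist its ratios to WT were -0.07 and -0.26.

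**Figure D2:**
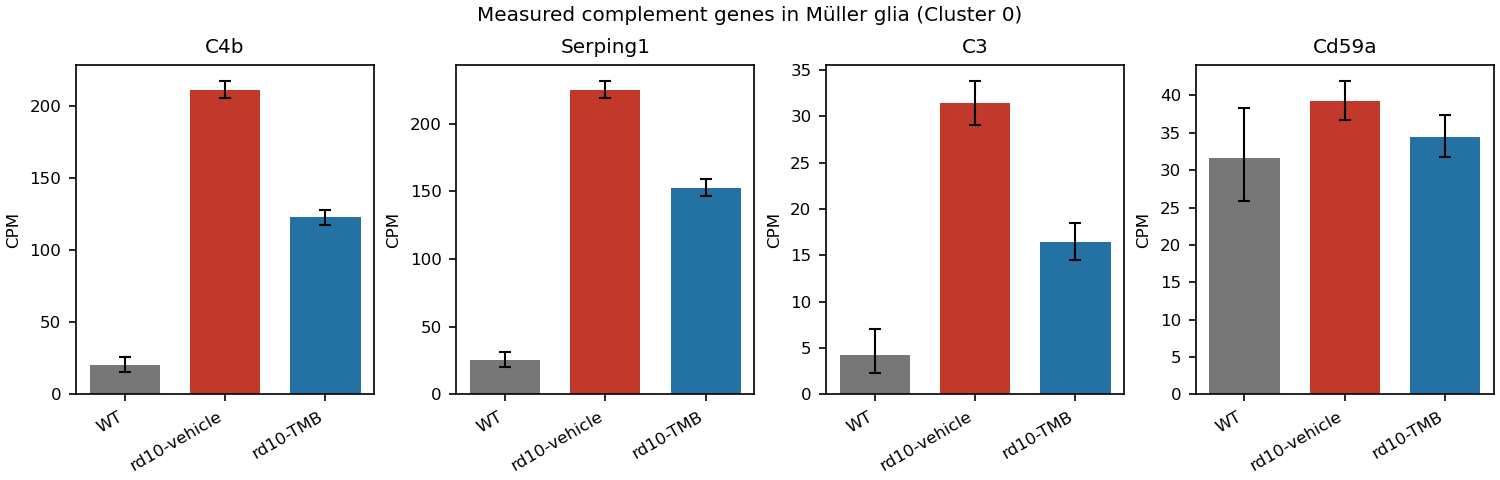
CPM of the 4 measured complement genes in Cluster 0 by library; bars are levels over all cells of the cluster, and error bars are 95% Poisson intervals. C4b, Serping1 and C3 are lowest in WT and highest in rd10-vehicle, and Cd59a lies between 31.6 and 39.2 CPM in all 3 libraries.

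The remaining genes were at or near 0 in MG. Over WT, rd10-vehicle and rd10-TMB, Cfi had 0, 4 and 7 UMIs, C1qa had 1, 4 and 6, C1qb 1, 11 and 7, and C1qc 0, 6 and 4. No direction was read from these counts. Of 12 microglia markers, 8 were at 0 in WT MG and 2 (Tmem119 and Siglech) in each rd10 library, and the markers summed to 20.8, 26.0 and 27.7 CPM. Rod markers, which MG should lack, summed to 970, 1341 and 1454 CPM in MG of the 3 libraries; rod RNA was thus present in the cluster at levels above those of C4b, and its part in the complement values was not tested. Cone markers summed to 163, 309 and 353 CPM in MG, and the part of cone RNA in the MG values of Cd59a, which was highest in the cone-like cells, was not tested. C4b, C3 and Serping1 were at or near 0 in the rod-like cells themselves. The summed astrocyte and lens markers in MG lay in the same order over the libraries as C4b. The 8 astrocyte markers, of which MG raised 4 and Pax2 was at 0 in each library, summed to 753, 1037 and 930.3 CPM. Gfap, which is among these astrocyte markers, stood at 16.3, 339 and 223 CPM in MG. Between any pair of libraries Gfap alone differed by more CPM than the astrocyte sum did. The 8 lens markers, of which 4 were at 0 in WT, summed to 7.83, 40.5 and 28.3 CPM. The lens-like Cluster 17 held 138 Serping1 UMIs in 18 rd10-vehicle cells. The part of such RNA in the MG values was not tested.

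The wider pathway was read from a list of complement genes, of which 39 in the matrix were used here. Between WT and rd10-vehicle MG, 20 of the 39 were measured, 7 were called higher and 1 lower (6.84% and 7.52% of all measured genes were), and their median log2 ratio was 0.02. Without the 8 listed genes it was -0.31, with 4 of 16 higher. Beyond the listed genes, the higher ones were the protease C1ra, factor B (Cfb), clusterin (Clu) and vitronectin (Vtn). C1ra, which cleaves its partner within the starting complex, stood at 1.81, 7.30 and 5.07 CPM in WT, rd10-vehicle and rd10-TMB. Cfb, the protease of the alternative pathway, stood at 0.602, 4.46 and 3.04 CPM, with only 2 UMIs in WT. Both were called higher in each rd10 library.

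Clu and Vtn hold the terminal complex in solution and were higher by less. Clu stood at 4046, 6757 and 5217 CPM, 1.67-fold higher in rd10-vehicle than in WT (log2 0.74, 0.71 to 0.77). Vtn stood at 18.98, 30.3 and 32.4 CPM. In the rod-like cells Clu also differed, at 28.4, 163 and 116 CPM, and was called higher in both rd10 libraries there. Clu was called higher in rd10-vehicle than in WT in Clusters 2, 3, 4, 6, 7, 8 and 10 as well, and not in Clusters 9, 11 and 12. The part of MG RNA in the Clu values of other clusters was not tested. Masp2, a lectin pathway protease, was the gene called lower, on 7 WT and 16 rd10-vehicle UMIs. In rd10-TMB against WT, 19 genes were measured, 6 were higher (all of the above but Clu) and 2 lower (Csmd2 and Cr2), against 5.49% and 7.07% of all measured genes, with a median of 0.04.

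From rd10-vehicle to rd10-TMB, 21 list genes were measured and 3 were called: C4b and C3 lower, and Colec12, a scavenger receptor of the collectin family, higher at 4.47 against 2.48 CPM (log2 0.84, 0.33 to 1.38). Of all measured genes 2.12% were lower and 0.947% higher. The median of the list was -0.22. C1ra (log2 -0.52, -0.92 to -0.14), Cfb (-0.54, -1.07 to -0.05) and Clu (-0.37, -0.39 to -0.36) had intervals below 0 but were under 1.5-fold, and Susd4 (0.50, 0.21 to 0.79) had one above 0, also under 1.5-fold. Cr1l, a membrane regulator, stood at 13.3, 14.3 and 14.01 CPM and was not called in any pair.

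**Figure D3:**
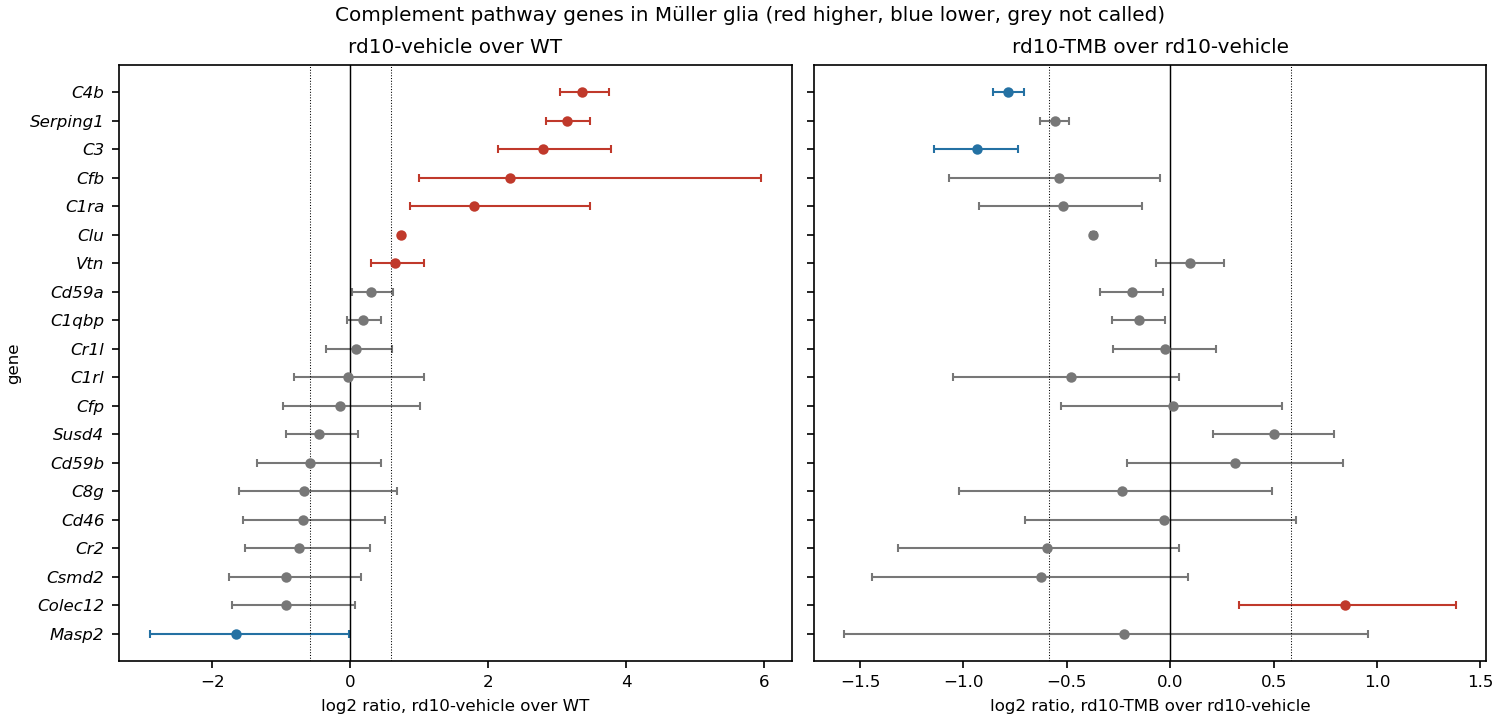
Log2 ratio in Cluster 0 for the 20 complement list genes measured between WT and rd10-vehicle, for rd10-vehicle over WT (left) and rd10-TMB over rd10-vehicle (right); error bars are 95% intervals, dotted lines mark 1.5-fold, and the horizontal scales differ. C4b, Serping1 and C3 lead on the left, and C4b and C3 are the genes called lower on the right.

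Within MG, the listed genes differed in how they related to Lcn2, the lipocalin that marks a reactive subset. A Lcn2 UMI was seen in 9 of 530 WT MG, 653 of 2492 in rd10-vehicle (26.2%, 24.5 to 28.0) and 300 of 1748 in rd10-TMB (17.2%, 15.4 to 19.01). After thinning to 1000 UMIs the shares were 0.949%, 12.6% and 6.89%, against 0.419%, 1.02% and 1.80% in the rod-like Cluster 1. The WT share was near that of the rod-like cells. The 5 thinned WT MG with Lcn2 held 3.6 UMIs of it each on average, against 1 in the 4 such rod-like WT cells. MG were split by an Lcn2 UMI, a measured value, so cells without one may still express the gene.

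C3 was concentrated in the MG with Lcn2. With each cell thinned to 1000 UMIs, C3 in rd10-vehicle stood at 75.6 CPM in MG with Lcn2 (55.9 to 99.97) and 2.19 CPM in those without (0.596 to 5.603), a log2 ratio of 4.82 (3.66 to 7.04). In rd10-TMB the thinned levels were 53.7 (30.7 to 87.2) and 2.80 CPM (0.763 to 7.17), a log2 ratio of 4.03 (2.63 to 6.30). The intervals of the subsets were far apart in both libraries.

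With all UMIs kept, an alternative chosen after seeing the data, 638 of the 697 C3 UMIs in rd10-vehicle and 233 of 275 in rd10-TMB lay in cells with Lcn2. The levels with and without Lcn2 were then 85.6 and 4.00 CPM in rd10-vehicle (21.1-fold; log2 4.40, 4.03 to 4.83), and 57.3 and 3.30 CPM in rd10-TMB (log2 4.09, 3.64 to 4.63). In WT, 9 of the 14 C3 UMIs lay in the 9 MG with Lcn2, at 92.1 CPM (42.1 to 175). The level in MG with Lcn2 was not called different between rd10-vehicle and WT (log2 -0.26, -1.04 to 1.03), a wide interval, while 1.70% of WT MG and 26.2% of rd10-vehicle MG were such cells.

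C4b in rd10-vehicle was spread over MG with and without Lcn2. Its thinned level was 199 CPM with Lcn2 (166 to 237) and 206 CPM without (186 to 228), a log2 ratio of -0.04 (-0.35 to 0.24), which bounds the difference below 1.5-fold. In rd10-TMB the thinned levels were 121 (84.6 to 167) and 109 CPM (92.7 to 128), a log2 ratio of 0.18 (-0.42 to 0.68). With all UMIs kept, the ratio was 0.04 (-0.04 to 0.13) in rd10-vehicle and 0.63 (0.49 to 0.76) in rd10-TMB, which lies within the thinned interval. WT was unlike rd10-vehicle: in its 9 MG with Lcn2, C4b stood at 113 CPM (56.2 to 202), from 11 UMIs, against 17.4 CPM (13.1 to 22.6) without, a log2 ratio of 2.80 (1.61 to 3.64) with all UMIs kept.

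Among MG without Lcn2, C4b was 11.8-fold higher in rd10-vehicle than in WT (log2 3.56, 3.21 to 3.99) and 1.93-fold lower in rd10-TMB compared with rd10-vehicle (log2 -0.95, -1.04 to -0.85), with all UMIs kept. Among those with Lcn2 the latter ratio was -0.36 (-0.49 to -0.23). The difference between the subsets was not tested.

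In the rd10 libraries, the Serping1 ratio lay between those of C4b and C3. Its thinned level was 302 CPM with Lcn2 (262 to 348) and 170.1 CPM without (152 to 190.1) in rd10-vehicle, a log2 ratio of 0.83 (0.56 to 1.09), and 258 against 106 CPM for rd10-TMB (log2 1.30, 0.87 to 1.70). Without Lcn2 and with all UMIs kept, Serping1 was 8.07-fold higher in rd10-vehicle than in WT, and 1.57-fold lower in rd10-TMB compared with rd10-vehicle (log2 -0.66, -0.75 to -0.56). In MG with Lcn2 the latter ratio was -0.20 (-0.30 to -0.10), and this difference between subsets was not tested either. In WT, Serping1 stood at 143 CPM with Lcn2, from 14 UMIs, and 21.7 CPM without, a log2 ratio of 2.80 (1.78 to 3.56) that was level with that of C4b.

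Cd59a in rd10-vehicle had a thinned level of 33.95 CPM with Lcn2 (21.3 to 51.4) and 28.99 CPM without (21.7 to 37.9), a log2 ratio of 0.26 (-0.56 to 0.97). In rd10-TMB the thinned levels were 53.7 CPM (30.7 to 87.2), from 16 UMIs, and 22.4 CPM (15.3 to 31.6), a log2 ratio of 1.30 (0.30 to 2.17). With all UMIs kept the ratios were 0.53 (0.33 to 0.72) and 0.81 (0.55 to 1.05), so the intervals lay above 0 in both rd10 libraries.

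**Figure D4:**
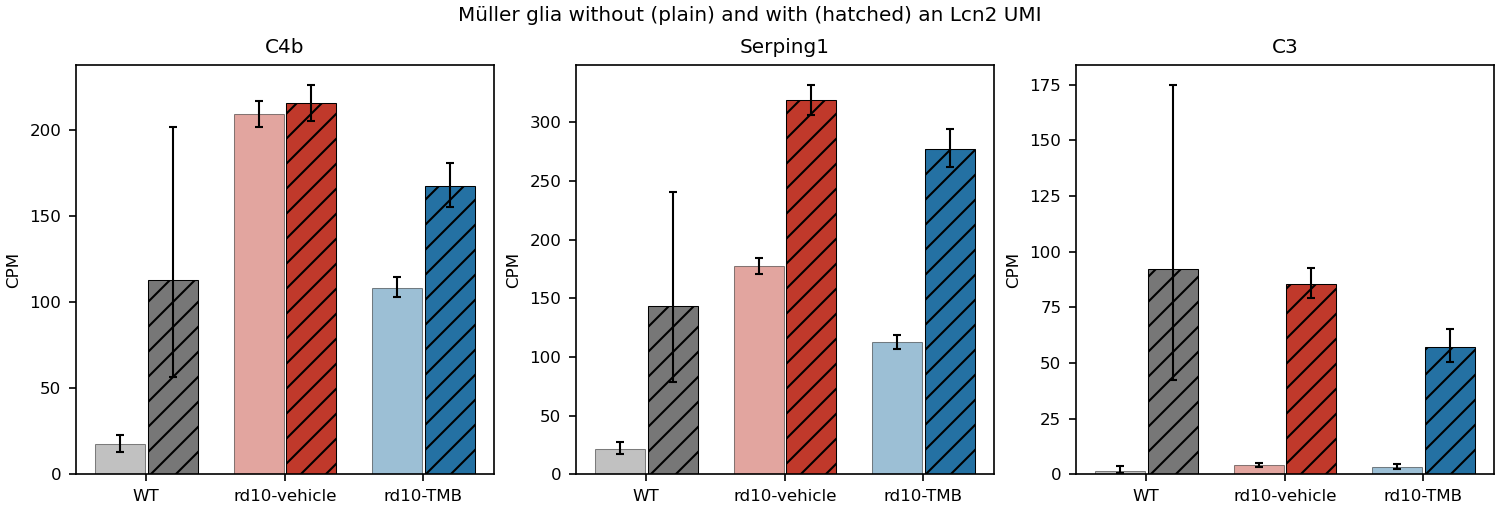
CPM of C4b, Serping1 and C3 in Cluster 0 cells without (plain bars) and with (hatched bars) an Lcn2 UMI, by library, from all UMIs, with 95% Poisson intervals. C3 lies at 4.00 CPM or less in all plain bars and above 50 CPM in all hatched bars, and the C4b bars of rd10-vehicle are nearly level at 209 and 215 CPM.

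The promoter of C3 is shown because C3 differed most between MG with and without Lcn2. The 250 bases before the RefSeq start of C3 on GRCm38.p6, chr17:57228137-57228386 on the reverse strand, are printed in lower case. Capitals mark matches, on either strand, to TTGCNNAA (a C/EBP core), GGG and CC with 5 bases of any kind between them (a loose NF-kB pattern), TTCNNNGAA (STAT) or GAGGAA (ETS).
C3: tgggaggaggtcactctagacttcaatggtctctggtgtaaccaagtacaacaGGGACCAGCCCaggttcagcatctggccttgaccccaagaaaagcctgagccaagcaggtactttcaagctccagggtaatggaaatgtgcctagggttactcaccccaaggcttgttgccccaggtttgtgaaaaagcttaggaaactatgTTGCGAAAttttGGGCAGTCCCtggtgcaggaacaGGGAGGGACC
The C/EBP letters matched once, as TTGCGAAA at 45 to 38 bases before the start, and 9.56% of 32851 mouse promoters of this length held a match. The NF-kB letters matched at 3 places, with matches on both strands at the farthest and the middle of them, but 45.8% of promoters held at least a match. No STAT or ETS match was found, against 7.02% and 23.3% of promoters. Such matches describe the sequence and are not shown to be binding sites.

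Against all other clusters together, MG were high in C3 and Serping1. With 2-fold set for this comparison, 3 of 5 measured genes were called higher in MG in WT (C4b, C3 and Serping1), 2 of 8 in rd10-vehicle (C3 and Serping1) and 3 of 8 in rd10-TMB (C4b, C3 and Serping1). Over all measured genes the share called higher was 13.4%, 12.9% and 15.2%. Serping1 was 9.49-, 4.28- and 6.80-fold higher in MG than in the rest in WT, rd10-vehicle and rd10-TMB. C3 was 3.91-, 3.45- and 10.8-fold higher, and C4b 2.70-, 1.85- and 2.62-fold higher. MG held most of the Serping1 UMIs in each library, at 67.2%, 86.5% and 90.2%. The share of C3 UMIs was 45.2%, 83.9% and 93.9%. For C4b the share was 36.4% in WT (29.5 to 43.8), then 73.5% (rd10-vehicle) and 78.0% (rd10-TMB), where MG were also 530, 2492 and 1748 of the cells.

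Cd59a was lower in MG than in the rest in every library, by 2.62-, 3.73- and 3.34-fold, and Cfi and, in the rd10 libraries, C1qa, C1qb and C1qc were far lower. In all, 2 of 5, 5 of 8 and 5 of 8 measured genes were called lower in MG in WT, rd10-vehicle and rd10-TMB, where 28.0%, 26.3% and 27.2% of all measured genes were.

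The highest C4b level of any cluster with at least 20 cells was in the astrocyte-like Cluster 12, not in MG. There C4b stood at 333 CPM in WT (273 to 402), 958 CPM in rd10-vehicle (907 to 1010) and 840 CPM in rd10-TMB (766 to 919), from 20, 88 and 33 cells. The rd10 levels lay above WT by 2.85-fold (log2 1.51, 1.24 to 1.82) and 2.50-fold (log2 1.32, 1.03 to 1.65). From rd10-vehicle to rd10-TMB the log2 ratio was -0.19 (-0.34 to -0.04), against -0.78 (-0.86 to -0.71) in MG. The 2 intervals did not overlap, though the difference between the clusters was not tested over mice.

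Serping1 in Cluster 12 stood at 6.17 CPM in WT, from 2 UMIs, and at 206 CPM (183 to 231) and 193 CPM (159 to 233) in rd10-vehicle and rd10-TMB. The rd10 levels were close, with a log2 ratio of -0.08 (-0.42 to 0.23). C3 had no UMI in the WT cells, 64 UMIs (45.5 CPM, 35.0 to 58.1) in those of rd10-vehicle, and 7 UMIs (12.4 CPM, 4.996 to 25.6) in those of rd10-TMB. Against a WT floor of 3 UMIs in the cluster, C3 was at least 4.91-fold higher in rd10-vehicle. Between the rd10 libraries, C3 was called lower in rd10-TMB (log2 -1.70, -3.24 to -0.75). Of all genes measured there, 3.51% were higher in rd10-vehicle and 3.13% in rd10-TMB than in WT, and 3.86% fell between rd10-vehicle and rd10-TMB.

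Serping1 was also raised in vessel cells. In the endothelial-like Cluster 11, where markers of mural cells were raised too, it stood at 13.6 CPM in WT (8.19 to 21.3), 72.6 CPM in rd10-vehicle (60.7 to 86.2) and 70.0 CPM in rd10-TMB (56.1 to 86.2). Both rd10 libraries lay above WT, by 5.11-fold (log2 2.35, 1.72 to 3.19) and 4.94-fold (log2 2.30, 1.63 to 3.16), and they overlapped each other (log2 -0.05, -0.46 to 0.35). Of all genes measured, 5.36% and 4.84% were called higher than in WT. The mural-like Cluster 14 held 5, 30 and 18 Serping1 UMIs in 20, 25 and 22 cells, at 75.5, 320.5 and 246 CPM. Its log2 ratios to WT there, from the 5 WT UMIs, were 1.87 (0.71 to 3.81) and 1.52 (0.22 to 3.49). With all UMIs kept, Serping1 was thus called higher in both rd10 libraries than in WT in MG and in astrocyte-like and endothelial-like cells. Whether its ratio between the rd10 libraries differs between MG and the others was not tested.

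C4b and C3 were scarce in vessels. In Cluster 11, C4b had 0, 20 and 1 UMIs, and 8 of the 20 lay in a single cell. C3 had 3 UMIs there in WT and 0 in both rd10 libraries. Smaller clusters carried some C4b, namely 35 UMIs in 35 cells (rd10-vehicle) and 23 UMIs in 16 cells (rd10-TMB) of the pigment epithelium-like Cluster 15 against 0 UMIs in 13 WT cells. The unnamed Cluster 18, led by Gpx3, Fbln1 and Crhbp, held 193 C4b, 109 Serping1 and 58 C3 UMIs in 23 rd10-vehicle cells. With 3 to 6 cells of it in the other libraries, no direction was read.

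**Figure D5:**
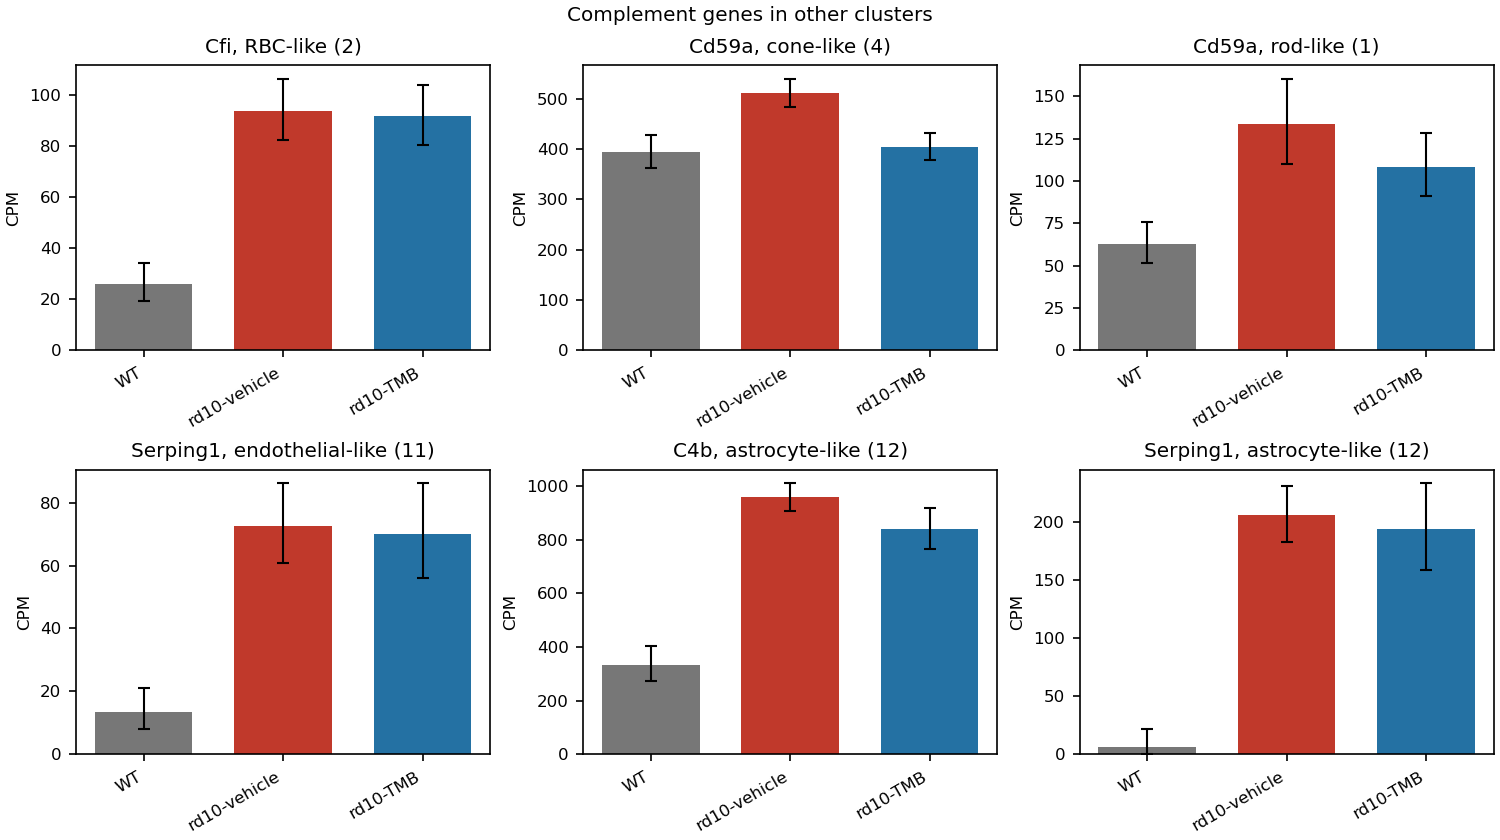
CPM of complement genes in 6 other cluster and gene pairs by library, with 95% Poisson intervals. The rd10-vehicle and rd10-TMB bars of Cfi in Cluster 2 (93.7 and 91.5 CPM) and of Serping1 in Cluster 11 (72.6 and 70.0 CPM) are nearly level, and both lie above WT.

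Cfi, the protease that inactivates deposited C3b and C4b, was found mostly in the RBC-like Cluster 2, which carried 98.1%, 95.0% and 92.9% of its UMIs in WT, rd10-vehicle and rd10-TMB. It stood there at 26.0 CPM in WT (19.3 to 34.1), 93.7 CPM in rd10-vehicle (82.3 to 106) and 91.5 CPM in rd10-TMB (80.4 to 104), from 51, 245 and 247 UMIs. The rd10 levels were alike and both above WT, by 3.55-fold (log2 1.83, 1.41 to 2.32) and 3.47-fold (log2 1.80, 1.38 to 2.28). From rd10-vehicle to rd10-TMB the log2 ratio was -0.03 (-0.29 to 0.23). Of all genes measured in Cluster 2, 3.59% and 2.60% were called higher than in WT. After thinning, a Cfi UMI was seen in 2.24%, 9.27% and 7.57% of these cells.

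The UMIs were spread over cells, with at most 7 in any of them. In the ON cone bipolar-like Cluster 3 and the OFF cone bipolar-like Cluster 8, Cfi had 0, 1 and 0 UMIs each, and in the cone-like Cluster 4 it had none. A few UMIs lay in small clusters. The pigment epithelium-like Cluster 15 had 0, 3 and 4 Cfi UMIs in 13, 35 and 16 cells, at 21.5 CPM (4.43 to 62.8) in rd10-vehicle and 94.7 CPM (25.8 to 242) in rd10-TMB, where it overlapped Cluster 2. Cluster 12 had 0, 4 and 4 UMIs, at 2.84 and 7.10 CPM in the rd10 libraries, and Cluster 6 had 3 UMIs in rd10-TMB (4.32 CPM) and none in the others. Cfi lies on the forward strand at chr3:129835884-129875332, and no other annotated gene overlaps it. Of 8 complement list genes measured in Cluster 2, 4 were called higher in each rd10 library than in WT (Cfi, Clu, Csmd2 and Csmd3) and 1 lower (Csmd1), where 2.03% and 2.27% of all genes measured were lower. Csmd1, Csmd2 and Csmd3 encode large membrane proteins with complement control domains. Csmd2 stood at 16.8, 52.4 and 34.8 CPM and Csmd1 at 13.7, 6.50 and 5.19 CPM, in opposite directions.

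Cd59a was highest in cones. In the cone-like Cluster 4 it stood at 394 CPM in WT (362 to 428), 511 CPM in rd10-vehicle (483 to 539) and 404 CPM in rd10-TMB (377 to 431). The rd10-vehicle level lay above the others, whose intervals overlapped. The ratios were under 1.5-fold, at log2 0.37 (0.23 to 0.52) for rd10-vehicle over WT, 0.03 (-0.12 to 0.19) for rd10-TMB over WT and -0.34 (-0.46 to -0.22) for rd10-TMB over rd10-vehicle. Of all genes measured in Cluster 4, 3.27%, 2.70% and 2.05% passed these calls in the same directions. Cones held 40.0%, 43.1% and 43.7% of all Cd59a UMIs.

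In the rod-like Cluster 1, Cd59a stood at 62.8 CPM in WT (51.8 to 75.6), 134 CPM in rd10-vehicle (110 to 160) and 108 CPM in rd10-TMB (91.0 to 128). Both rd10 libraries were called higher than WT, by 2.13-fold (log2 1.09, 0.70 to 1.48) and 1.72-fold (log2 0.78, 0.42 to 1.16), where 4.68% and 3.58% of all genes were. The rd10 levels overlapped each other (log2 -0.30, -0.67 to 0.07). After thinning, 5.35%, 10.5% and 9.31% of rod-like cells held a Cd59a UMI. The part of cone RNA in the Cd59a values of rod-like cells was not tested.

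Endothelial-like cells held Cd59a at 217, 214 and 204 CPM, with ratios between libraries within log2 -0.33 and 0.20 by their intervals. The 18 WT cells of the horizontal-like Cluster 19 held 79 UMIs of it (217 CPM), and this cluster had 4 and 6 cells in the rd10 libraries. Its neighbour Cd59b shared 0 of 411 windows of 90 bases with the end of the Cd59a transcript, so the counts of the pair could be told apart. Cd59b had 14, 66 and 62 UMIs in MG.

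C1qa, C1qb and C1qc encode the 3 chains of C1q and lie next to each other on chromosome 4, in the order C1qb (chr4:136880129-136886187), C1qc (chr4:136889804-136893065) and C1qa (chr4:136895917-136898803), all on the reverse strand. Their transcripts came from the microglia-like Cluster 13, which carried 99.4% and 99.3% of the C1qa UMIs in rd10-vehicle and rd10-TMB. C1qa stood there at 7563 CPM in rd10-vehicle (7266 to 7869) and 7377 CPM in rd10-TMB (7032 to 7735). For C1qb the levels were 7287 and 7239 CPM, and for C1qc 4620 and 5088 CPM. The rd10 libraries did not differ by 1.5-fold in any of them: the log2 ratios of rd10-TMB over rd10-vehicle were -0.04 (-0.13 to 0.05), -0.01 (-0.10 to 0.08) and 0.14 (0.03 to 0.25), from 30 and 52 cells.

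No C1q comparison with WT could be made. The 6 WT cells placed in Cluster 13 held 16119 UMIs but 0 of any C1q gene and 0 of all 12 microglia markers, so by these markers they were not microglia. In the rd10 libraries the 12 markers summed to 21520 and 20231 CPM. Macrophage genes such as Lyz2 and Cd74 were also raised in the cluster, and resident microglia and infiltrating cells were not separated. Cluster 13 also held C4b, at 155 CPM (115 to 204) in rd10-vehicle and 181 CPM (131 to 245) in rd10-TMB, in 17 of 52 and 11 of 30 cells, while Serping1 had 0 and 4 UMIs there.

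Outside Cluster 13, the 3 genes together had 8, 54 and 40 UMIs in WT, rd10-vehicle and rd10-TMB, that is 0.424, 1.47 and 1.38 CPM. Within Cluster 13 the UMIs were divided as 38.3% C1qa, 37.1% C1qb and 24.6% C1qc of 10849, and outside it as 28.4%, 46.1% and 25.5% of 102. The source of these few UMIs was not tested.

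The promoters of C1qb and C1qc are shown because both genes were read from the same cells. The 250 bases before the RefSeq start are at chr4:136886201-136886450 for C1qb and chr4:136892915-136893164 for C1qc (GRCm38.p6, reverse strand), with capitals for the same 4 motifs as for C3. The RefSeq start of C1qc lies within the gene as placed above from GENCODE, so the part of its window nearest the start, with the NF-kB letters, is inside that gene model.
C1qb: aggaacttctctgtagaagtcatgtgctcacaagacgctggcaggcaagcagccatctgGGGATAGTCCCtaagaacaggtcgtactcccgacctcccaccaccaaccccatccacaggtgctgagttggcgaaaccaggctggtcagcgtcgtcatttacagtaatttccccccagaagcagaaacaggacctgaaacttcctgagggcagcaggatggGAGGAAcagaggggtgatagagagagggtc
C1qc: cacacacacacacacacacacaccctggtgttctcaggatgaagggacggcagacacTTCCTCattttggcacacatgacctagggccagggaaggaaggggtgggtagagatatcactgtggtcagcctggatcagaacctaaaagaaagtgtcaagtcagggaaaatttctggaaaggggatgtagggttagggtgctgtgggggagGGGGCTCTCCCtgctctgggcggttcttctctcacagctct
Each held the ETS letters, at 30 to 25 bases before the start in C1qb and, on the other strand, at 193 to 188 bases in C1qc. Each also held the loose NF-kB letters, and neither held the C/EBP letters found in C3. Promoter sequences were given for 4 of the 8 genes, the other being Cd59a.

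Across the 35 cluster and library units with at least 50 cells, the genes most like each listed gene in log2(CPM + 1) were found among 13325 genes with at least 200 UMIs. These units share libraries and cell types, so the correlations only describe the pattern. Only 1 of the units was of Cluster 13, so no likeness is given for C1qa, C1qb and C1qc. C4b was most like transferrin (Trf, Pearson r = 0.90), Fzd7 (0.89) and Pdlim4 (0.88). Serping1 was most like Ccn2 (0.89), Crip2 (0.88) and Plscr2 (0.88). C3 had the weakest partners, led by Pygb (0.79), Prtn3 (0.78) and Ccdc74a (0.78). Cfi was most like the predicted genes Gm35217 (0.93), Gm30725 (0.91) and Gm19689 (0.90), and Cd59a was most like Vtn (0.86), Egflam (0.86) and Golim4 (0.84).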

How the data were processed

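Single-cell libraries were made with 10x v3 chemistry. Per the labels, Cell Ranger 6.0.1 and Seurat 3.2.2 were used with mm10; the methods add a minimum of 500 genes per cell and removal of doublets with Scrublet before deposit. The authors deposited natural log values of 1 plus UMIs per 10000 UMIs of a cell, with clusters. These were turned back into whole UMI counts (100% within 0.001 UMI), which summed to the deposited total counts in 15242 of 15242 cells. Clusters are the authors' and names were set from marker lists (at least 3 raised markers). UMIs were summed per cluster and library, with exact Poisson, conditional binomial and Clopper-Pearson 95% intervals (Python 3.11.15, scipy 1.17.1). Cells were thinned to 1000 UMIs for shares, leaving out shallower cells. Calls were tested on simulated counts with counting error alone, so that test does not cover the spread between cells, pools or mice. The genes named are the 8 listed ones, complement list genes with at least 20 UMIs in Cluster 0 called in any pair, and the 3 genes most like each listed gene (left out for C1qa, C1qb and C1qc); Cr1l, Susd4, C4a, Cd59b, Csmd1 and Csmd3 fall outside that rule and were chosen after their values were seen. Members and lists were chosen with earlier results of these data known. Sequences are from RefSeq (GRCm38.p6) and positions from GENCODE vM21. A gene of the complement list is not reported here.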

Additional observations from a re-analysis of the deposited data

Results flagged for a closer look

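Cd59a moved in opposite directions between rd10-TMB and WT in different clusters, which brought it up for a closer look: the log2 ratio was 0.78 in the rod-like Cluster 1 (113 WT and 137 rd10-TMB UMIs) and -1.48 in the unnamed Cluster 6 (17 and 4 UMIs). The difference between the clusters was not tested, and with 1 library per group the directions rest on a single pool each.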

How the results depend on the processing

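No paired analysis was possible because each group was 1 pooled library, and for the same reason none could be left out. The count of listed genes called in MG from WT to rd10-vehicle was 3 under every alternative run. From WT to rd10-TMB it was 3, and 2 when cells were thinned to 1000 UMIs or those with an Lcn2 UMI were left out, C3 being the gene lost. From rd10-vehicle to rd10-TMB it was 2 (C4b and C3), 3 in some alternatives that added Serping1, 2 without cells holding an Lcn2 UMI (C4b and Serping1), and 0 when 2-fold was required. Against the other clusters, 3 genes were called higher in WT, and 0 after thinning each cell to 1000 UMIs, which left too few UMIs to measure them. Over the alternatives, the log2 ratio of rd10-vehicle over WT in MG ran from 3.25 to 3.75 for C4b, 2.93 to 3.41 for Serping1 and from 1.13 upward for C3. C3 depended on few cells: without MG holding an Lcn2 UMI the ratio was 1.13, and rd10-TMB over rd10-vehicle went from -0.93 to -0.27. With WT cells limited to those with Xist and no Y-linked UMI, C3 was at 1.97 for rd10-vehicle over WT. Cfi in Cluster 2 ran from 1.66 to 2.02, in alternatives chosen after seeing the data. Of the other values, 56 moved outside their interval and 394 were counted as unmoved, among them a few shifts over all genes that had no interval. No called ratio changed sign, but some ratios that were not called did, among them Cd59a in MG against WT (to -0.07 and -0.26 with WT cells limited to those with Xist) and Serping1 in Cluster 12 between the rd10 libraries (to 0.57 after thinning). Depth limits what can be said of Cfi and C1q in MG, where at most 11 UMIs were seen per library.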
